A study of Homo sapiens with 6 samples.

Results

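The MAP kinase phosphatases of the dual-specificity (DUSP) family were followed at the mRNA level after siRNA against *DUSP6* in MDA-MB-453, a cell line established from a HER2+ breast cancer. The 10 genes were taken by symbol, namely *DUSP1*, *DUSP2*, *DUSP4*, *DUSP5*, *DUSP6*, *DUSP7*, *DUSP8*, *DUSP9*, *DUSP10* and *DUSP16*, and all 10 were among the 22807 genes of the expression table. The study sequenced RNA from 3 libraries of cells transfected with scrambled siRNA and 3 libraries of cells transfected with *DUSP6* siRNA, all of genotype WT per the labels and cultured in RPMI with serum. The study used 3 different siRNAs per group, from more than 1 supplier, and the sources used here do not tie a siRNA to a library, so each group is treated as 3 replicates. The time from transfection to harvest is not given in the sources used here. Nothing in the labels says that the libraries came from separate cultures, so the p-values measure only the spread between these libraries.

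The MAP kinase phosphatases remove the paired threonine and tyrosine phosphates that switch MAP kinases on. An N-terminal kinase-interaction domain docks them onto ERK, JNK or p38, and by location and target they are usually sorted into inducible nuclear enzymes (*DUSP1*, *DUSP2*, *DUSP4*, *DUSP5*), cytoplasmic enzymes that prefer ERK (*DUSP6*, *DUSP7*, *DUSP9*) and enzymes that prefer JNK and p38 (*DUSP8*, *DUSP10*, *DUSP16*). Several are themselves transcribed in response to ERK activity and so close a negative feedback loop on the kinase that induced them, *DUSP4*, *DUSP5* and *DUSP6* being widely used as readouts of ERK activity. Because their substrates overlap, the comparison bears on whether mRNAs of other MAP kinase phosphatases rose where *DUSP6* was lowered. Neither the phosphatase proteins nor the phosphorylation of their substrates was measured here.

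The deposited values are reads scaled to the size of each library and are called normalized values here. The libraries held 45546981 to 85729785 reads, so that 1 read equaled a value of 0.0121 to 0.0202. Epithelial markers *EPCAM* and *CDH1* were at 214 to 301 and 47.4 to 56.8 across the 6 libraries. *KRT8* was at 467 to 715 with scrambled siRNA and lower, at 426 to 465, with *DUSP6* siRNA. *ERBB2* was at 882 to 1068 with scrambled siRNA and lower, at 457 to 520, with *DUSP6* siRNA. The luminal marker *KRT19* was at 618 to 988 with scrambled siRNA and at 222 to 255 with *DUSP6* siRNA. Markers of leukocytes (*PTPRC*) and endothelium (*PECAM1*) did not exceed 0.0809 and 0.253. Of the other markers of other cell types, *CD68* was at 3.41 to 5.47 across the 6 libraries. *COL1A1* was well above the floor, at 80.7 to 105 with scrambled siRNA and 162 to 192 with *DUSP6* siRNA. In these bulk libraries, fewer cells carrying an mRNA and less of it per cell cannot be told apart. *DUSP6* siRNA replicate 2 was the library farthest from its group's median for 50.3% of 12862 genes tested, and calls and counts that change without it are given both ways.

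*DUSP6* mRNA, the target of the siRNA, followed the labels in each library. *DUSP6* (MKP-3, Entrez gene 1848), the cytoplasmic phosphatase specific for ERK, lies on the minus strand of chromosome 12 of GRCh38 from 89347235 to 89352501 and has 3 exons in its MANE Select transcript. With scrambled siRNA, replicates 1 to 3 had normalized values of 209, 110 and 114, and with *DUSP6* siRNA replicates 1 to 3 had 39.4, 24.5 and 35.2. Every *DUSP6* siRNA library was below every scrambled siRNA library, scrambled siRNA replicate 1 stood well above its group, and *DUSP6* siRNA replicate 2 was the lowest. The mean went from 144 ± 55.7 (SD, n = 3) to 33.0 ± 7.68 (SD, n = 3), or 22.9% of the scrambled siRNA mean, a log2 fold change of -2.05 (standard error 0.25, 95% interval -2.62 to -1.49) with a Benjamini-Hochberg adjusted p of 3.09e-04 in limma. Of all genes tested, 0.327% had a log2 fold change at or below it. Fold changes in the text are on the log2(value + 1) scale, DUSP6 siRNA over scrambled siRNA, which makes those of low genes smaller. A gene annotated on the opposite strand overlaps 28.6% of the *DUSP6* exon sequence. The libraries were made with a stranded kit, but reads were assigned to genes at default settings and no use of the strand is stated. The *DUSP6* value may thus include reads of that gene.

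**Figure D1:**
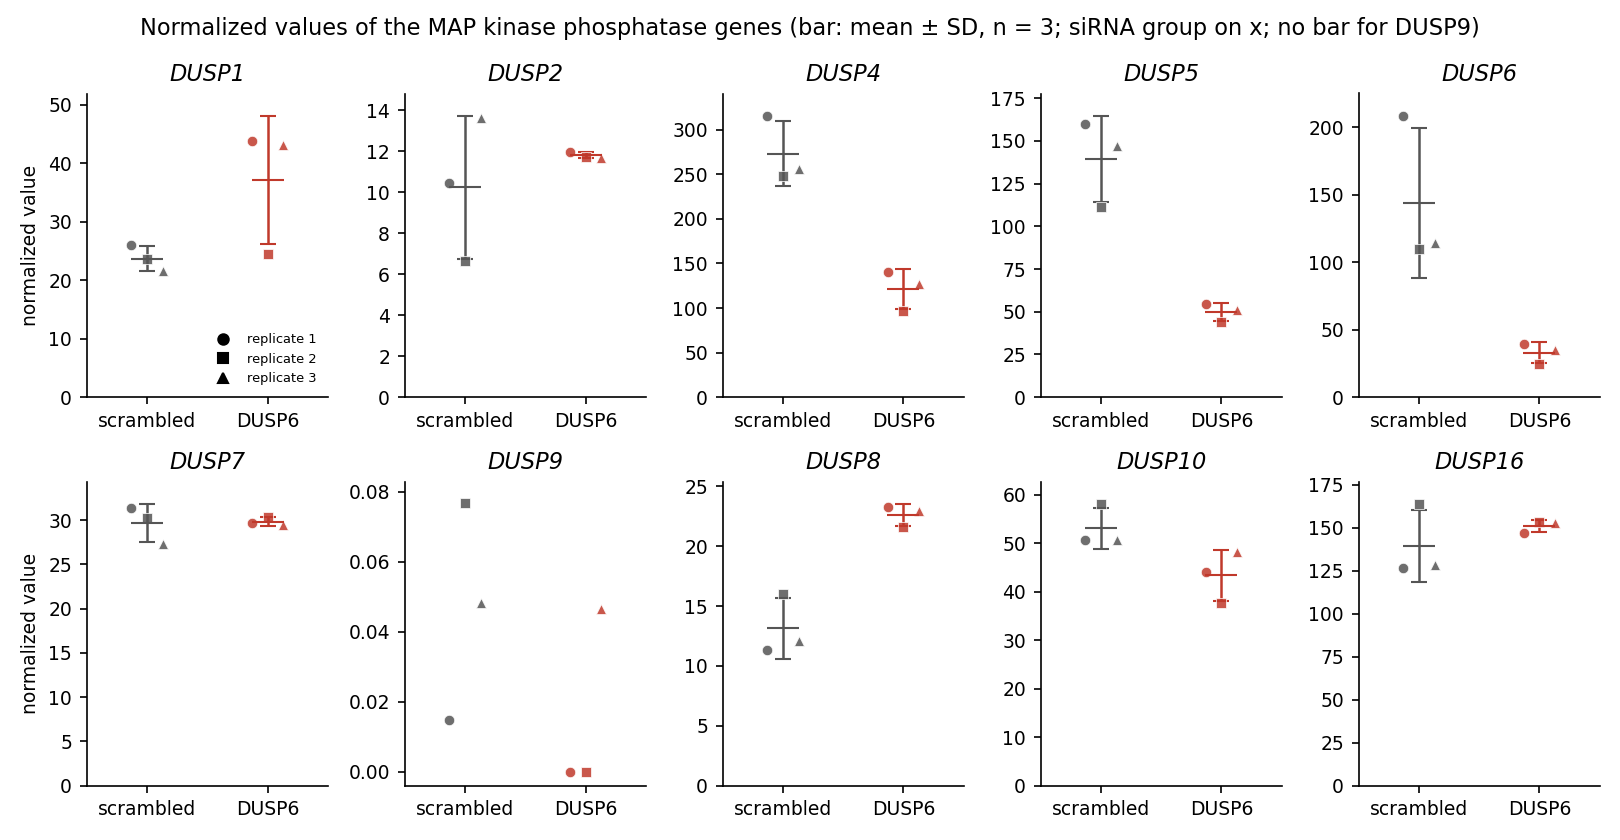
Normalized value (linear y axis from 0, 1 panel per gene with its own scale) of the 10 MAP kinase phosphatase genes in each library, by siRNA group on the x axis, with replicates 1 to 3 as circle, square and triangle and the mean ± SD (n = 3) as a cross bar except for *DUSP9*. The groups do not overlap for *DUSP4*, *DUSP5*, *DUSP6*, *DUSP8* and *DUSP10*, and they overlap for the others.

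The other MAP kinase phosphatases moved in both directions. Of the 10 genes, 9 passed the filter of a mean value of at least 1. Of the 8 of them other than *DUSP6*, 2 were higher (*DUSP1* and *DUSP8*), 2 were lower (*DUSP4* and *DUSP5*) and 4 were not called at an adjusted p under 0.05 (*DUSP2*, *DUSP7*, *DUSP10* and *DUSP16*). Calls were common in this comparison, since 44.5% of the 12862 genes tested were called, 19.7% as higher and 24.7% as lower. A count of 2 of 8 in each direction is close to that background. The sizes of the 2 decreases stand farther out in the distribution, since 2.85% of all genes tested had a log2 fold change at or below that of *DUSP4* and 1.43% at or below that of *DUSP5*. Groups without overlap were seen for 26.7% of all genes tested with higher values and 31.1% with lower values.

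**Figure D2:**
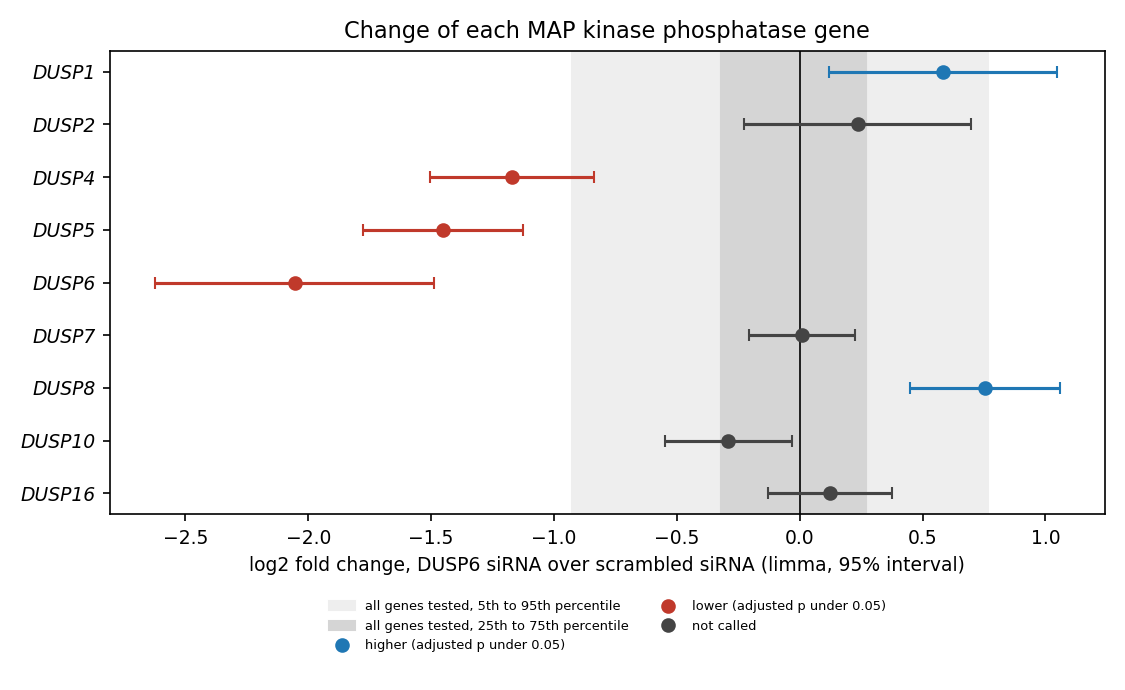
Log2 fold change (x axis) of the 9 MAP kinase phosphatase genes tested (y axis) with its 95% interval from limma, colored by call, over grey bands that span the 5th to 95th and the 25th to 75th percentile of all 12862 genes tested. *DUSP4*, *DUSP5* and *DUSP6* lie to the left of the wide band, *DUSP8* lies near its right edge at 0.75, and the intervals of *DUSP2*, *DUSP7* and *DUSP16* span 0.

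Among the inducible nuclear enzymes, both that are best known for acting on ERK were lower, and *DUSP1* was higher. *DUSP5* (hVH3, Entrez gene 1847, plus strand of chromosome 10, 110497907 to 110511533), which binds ERK and holds it in the nucleus, was at 160, 111 and 147 with scrambled siRNA and at 54.6, 43.9 and 51.2 with *DUSP6* siRNA. All *DUSP6* siRNA libraries lay below all scrambled siRNA libraries, and *DUSP6* siRNA replicate 2 was again the lowest. The mean dropped from 139 ± 25.2 to 49.9 ± 5.46 (SD, n = 3 each), 35.8% of the scrambled siRNA mean, and the log2 fold change was -1.45 (standard error 0.14, 95% interval -1.78 to -1.13, limma Benjamini-Hochberg adjusted p = 1.03e-04).

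*DUSP4* (MKP-2, Entrez gene 1846, minus strand of chromosome 8, 29333064 to 29350684), an ERK-induced enzyme that acts on ERK and also on JNK, was at 315, 248 and 256 with scrambled siRNA and at 141, 97.2 and 127 with *DUSP6* siRNA. The groups did not overlap, and the gap between them was wider than the range within either group. The mean dropped from 273 ± 36.8 to 122 ± 22.2 (SD, n = 3 each), 44.5% of the scrambled siRNA mean, and the log2 fold change was -1.17 (standard error 0.15, 95% interval -1.51 to -0.84, limma Benjamini-Hochberg adjusted p = 3.70e-04). For *DUSP4*, *DUSP5* and *DUSP6* alike the two-sided exact permutation test gave p = 0.1, and with 3 libraries per group it can give no smaller value. Leaving out any single library kept the calls of these 3 genes, with log2 fold changes of -1.28 to -1.02 for *DUSP4*, -1.61 to -1.35 for *DUSP5* and -2.22 to -1.76 for *DUSP6*.

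The 6 libraries ranked in the same order for *DUSP4*, *DUSP5* and *DUSP6*. From the highest value to the lowest, the order was scrambled siRNA replicates 1, 3 and 2 and then *DUSP6* siRNA replicates 1, 3 and 2. This order was noticed after the values had been seen, and 2.36% of all genes tested shared it. *DUSP6* siRNA replicate 2, with the least *DUSP6* mRNA, therefore also had the least *DUSP4* and *DUSP5* mRNA. Within the *DUSP6* siRNA group it was the lowest library for 6 of the 9 MAP kinase phosphatase genes tested, against 33.55% of all genes tested.

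*DUSP1* (MKP-1, Entrez gene 1843, minus strand of chromosome 5, 172768096 to 172771195) is the immediate early, stress-inducible enzyme that prefers p38 and JNK over ERK. It was at 25.9, 23.5 and 21.5 with scrambled siRNA and 43.8, 24.4 and 43.1 with *DUSP6* siRNA. Replicates 1 and 3 of *DUSP6* siRNA stood above all scrambled siRNA libraries, while replicate 2 lay within the scrambled siRNA range, so the groups overlapped. The mean rose from 23.7 ± 2.19 to 37.1 ± 11.0 (SD, n = 3 each), and the log2 fold change was 0.58 (standard error 0.20, 95% interval 0.12 to 1.05, limma Benjamini-Hochberg adjusted p = 0.0441). The two-sided exact permutation test gave p = 0.2 for *DUSP1*. This call was close to the threshold, was lost when any 1 of 5 libraries was left out, with limma Benjamini-Hochberg adjusted p-values up to 0.153, and was kept without *DUSP6* siRNA replicate 2, where the log2 fold change was 0.85 (limma adjusted p = 0.00276). It was also lost without the filter on low values (limma adjusted p = 0.0951).

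*DUSP2* (PAC-1, Entrez gene 1844, chromosome 2, 96143169 to 96145440), a nuclear enzyme best known from activated lymphocytes, was at 10.5, 6.67 and 13.6 with scrambled siRNA and at 12.0, 11.7 and 11.7 with *DUSP6* siRNA. The *DUSP6* siRNA libraries lay close together and inside the scrambled siRNA range. The log2 fold change of 0.24 had a 95% interval from -0.23 to 0.70 and was not called (limma Benjamini-Hochberg adjusted p = 0.372), and it was -0.02 without scrambled siRNA replicate 2, the lowest library. Of the inducible nuclear group, then, *DUSP4* and *DUSP5* fell, *DUSP2* was not called, and *DUSP1* rose with a call that depended on the libraries included.

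The other cytoplasmic ERK enzymes were not called. *DUSP7* (MKP-X, Entrez gene 1849, chromosome 3, 52048919 to 52056571), a cytoplasmic ERK phosphatase, was at 31.4, 30.3 and 27.3 with scrambled siRNA and at 29.7, 30.4 and 29.4 with *DUSP6* siRNA. All 6 libraries lay within a narrow range and the groups overlapped. The difference was 0.01 on the log2 scale with a 95% interval from -0.20 to 0.23 (limma Benjamini-Hochberg adjusted p = 0.939), so that a rise of *DUSP7* beyond 0.23 lies outside the interval.

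*DUSP9* (MKP-4, Entrez gene 1852, chromosome X, 153642492 to 153651326), the remaining cytoplasmic ERK phosphatase, best known from placenta, was barely detected. Its value rested on 1, 4 and 4 reads with scrambled siRNA and on 0, 0 and 3 reads with *DUSP6* siRNA. A count of 0 allows up to 3 reads, counting error only, so no difference was detectable at this depth and no fold change is given.

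Of the enzymes that prefer JNK and p38, *DUSP8* was higher with *DUSP6* siRNA and the other two were not called. *DUSP8* (hVH5, Entrez gene 1850, minus strand of chromosome 11, 1554051 to 1572271), a JNK and p38 phosphatase best known from brain and heart, was at 11.3, 16.0 and 12.1 with scrambled siRNA and at 23.3, 21.6 and 22.9 with *DUSP6* siRNA. Every *DUSP6* siRNA library was above every scrambled siRNA library, and the 3 *DUSP6* siRNA values lay close together. The mean rose from 13.1 ± 2.52 to 22.6 ± 0.88 (SD, n = 3 each), 172% of the scrambled siRNA mean, with a log2 fold change of 0.75 (standard error 0.13, 95% interval 0.45 to 1.06, limma Benjamini-Hochberg adjusted p = 0.00219). The call of *DUSP8* held in all 15 alternative fits, with log2 fold changes between 0.66 and 0.89. By size, 5.22% of all genes tested had a log2 fold change at or above that of *DUSP8*.

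*DUSP10* (MKP-5, Entrez gene 11221, chromosome 1, 221701424 to 221742089), which acts on JNK and p38, was at 50.6, 58.0 and 50.7 with scrambled siRNA and at 44.2, 37.7 and 48.2 with *DUSP6* siRNA. The groups did not overlap, but the gap between the nearest libraries was smaller than the spread within the *DUSP6* siRNA group. The log2 fold change of -0.29 (95% interval -0.55 to -0.03) missed the threshold (limma Benjamini-Hochberg adjusted p = 0.0654), and none of the alternative fits called it.

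*DUSP16* (MKP-7, Entrez gene 80824, chromosome 12, 12473282 to 12562863), a JNK phosphatase that shuttles between nucleus and cytoplasm, was at 126, 164 and 128 with scrambled siRNA and at 147, 153 and 153 with *DUSP6* siRNA. Scrambled siRNA replicate 2 was the highest of the 6 libraries, and the other scrambled siRNA libraries were the lowest. The log2 fold change of 0.12 (95% interval -0.13 to 0.38) was not called (limma Benjamini-Hochberg adjusted p = 0.388), although without scrambled siRNA replicate 2 it was 0.24 and called (limma adjusted p = 0.0400).

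The promoters of *DUSP1* and *DUSP8*, the higher genes, share a sequence feature that the promoter of *DUSP6* lacks. *DUSP6* was the target of the siRNA, so its promoter is no contrast for the rise of *DUSP1* and *DUSP8*. The lower genes *DUSP4* and *DUSP5* had no matched promoter, so a link between the feature and the direction of change was not tested. Each of the 3 promoters is read from RefSeq on GRCh38.p14, 250 bases before to 50 after the annotated start. The sequence runs 5′ to 3′ on the gene's own strand, which is the minus strand for all 3. Capitals mark the letters of the motifs that were found, among them the cAMP response element TGACGTCA and its half-sites TGACG and CGTCA (which overlap it), the TATA box TATAAA and the CCAAT box, seen here as ATTGG on the opposite strand. The windows are chr12:89352452-89352751 for *DUSP6*, chr5:172771146-172771445 for *DUSP1* and chr11:1572222-1572521 for *DUSP8*.
DUSP6: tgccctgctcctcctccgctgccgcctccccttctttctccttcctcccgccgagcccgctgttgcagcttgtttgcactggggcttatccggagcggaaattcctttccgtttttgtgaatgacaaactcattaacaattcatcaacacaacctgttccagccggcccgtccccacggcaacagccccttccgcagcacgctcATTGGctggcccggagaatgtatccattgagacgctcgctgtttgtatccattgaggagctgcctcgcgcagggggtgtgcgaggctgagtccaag
DUSP1: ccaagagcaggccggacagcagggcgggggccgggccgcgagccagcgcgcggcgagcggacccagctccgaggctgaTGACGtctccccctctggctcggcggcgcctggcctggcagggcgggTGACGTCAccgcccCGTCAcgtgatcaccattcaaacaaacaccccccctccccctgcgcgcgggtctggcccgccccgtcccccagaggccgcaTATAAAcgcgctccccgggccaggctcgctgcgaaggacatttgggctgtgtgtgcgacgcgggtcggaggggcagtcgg
DUSP8: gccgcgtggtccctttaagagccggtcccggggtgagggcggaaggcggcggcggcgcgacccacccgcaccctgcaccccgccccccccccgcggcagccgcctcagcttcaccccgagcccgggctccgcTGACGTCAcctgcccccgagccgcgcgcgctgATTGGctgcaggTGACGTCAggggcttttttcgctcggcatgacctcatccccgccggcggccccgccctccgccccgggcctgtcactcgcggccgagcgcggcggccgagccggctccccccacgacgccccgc
The full element TGACGTCA began at position -125 of *DUSP1* and at positions -118 and -74 of *DUSP8*, counted from the first transcribed base as 0. *DUSP1* also held TATAAA at -30 and *DUSP8* ATTGG at -86, while the only match in *DUSP6* was ATTGG at -46.

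RefSeq promoters were matched for 8 of the 10 genes, all but *DUSP4* and *DUSP5*. The full element was found in 2 of these 8, *DUSP1* and *DUSP8*, against 1.85% of 35116 promoters of the same length. Among genes tested with a matched promoter, it was found in 4.87% of those called higher, 2.92% of those called lower and 4.1% of those not called. The AP-1 site TGANTCA (7.71% of promoters), the ETS site CCGGAAG (10.3%), the interferon-stimulated response element GAAANNGAAA (3.57%) and the forkhead site TAAACA (12.3%), searched on both strands, were in none of the 8. The motifs were chosen after the fold changes had been seen, and a match describes letters in the window, not a bound site.

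To compare levels between genes, values were divided by the length of the MANE Select transcript in kilobases. On this per-kilobase scale, the scrambled siRNA means were 56.3 ± 10.2 for *DUSP5*, 49.2 ± 6.63 for *DUSP4* and 39.8 ± 15.4 for *DUSP6* (SD, n = 3 each). These neighbors in the order did not differ beyond their spread. *DUSP16* followed at 20.9 ± 3.15 and *DUSP10* at 20.5 ± 1.64, again within each other's spread, then *DUSP1* at 11.8 ± 1.09, *DUSP7* at 8.82 ± 0.630, *DUSP2* at 6.08 ± 2.06 and *DUSP8* at 2.72 ± 0.523 per kilobase. From *DUSP10* downward, the libraries of neighboring genes in this order did not overlap. *DUSP6* was thus at rank 3 in the control cells, and the genes that fell were the 3 highest.

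With *DUSP6* siRNA the order changed. *DUSP16* led at 22.7 ± 0.545 per kilobase, within the spread of *DUSP4* at 21.9 ± 4.00 and *DUSP5* at 20.1 ± 2.21, followed by *DUSP1* at 18.4 ± 5.45 and *DUSP10* at 16.7 ± 2.05. *DUSP6* stood at 9.11 ± 2.12 per kilobase, within the spread of *DUSP7* at 8.87 ± 0.142. *DUSP2* was at 7.00 ± 0.0874, and *DUSP8*, though higher than in the control cells, remained the lowest of the 9 at 4.68 ± 0.183 per kilobase.

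Summed over all 10 genes, the per-kilobase level was 248, 195 and 205 in the scrambled siRNA libraries and 140, 112 and 137 in the *DUSP6* siRNA libraries, in the order of their replicate numbers. Each *DUSP6* siRNA library was below each scrambled siRNA library, and replicate 2 was the lowest. The mean of the sum was 216 ± 28.2 with scrambled siRNA and 130 ± 15.1 with *DUSP6* siRNA, 59.9% of the control. Without *DUSP6* itself the sum was 176 ± 13.2 and 120 ± 13.1, 68.3% of the control. The increases of *DUSP1* and *DUSP8* were thus smaller, per kilobase, than the decreases of *DUSP4* and *DUSP5*.

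**Figure D3:**
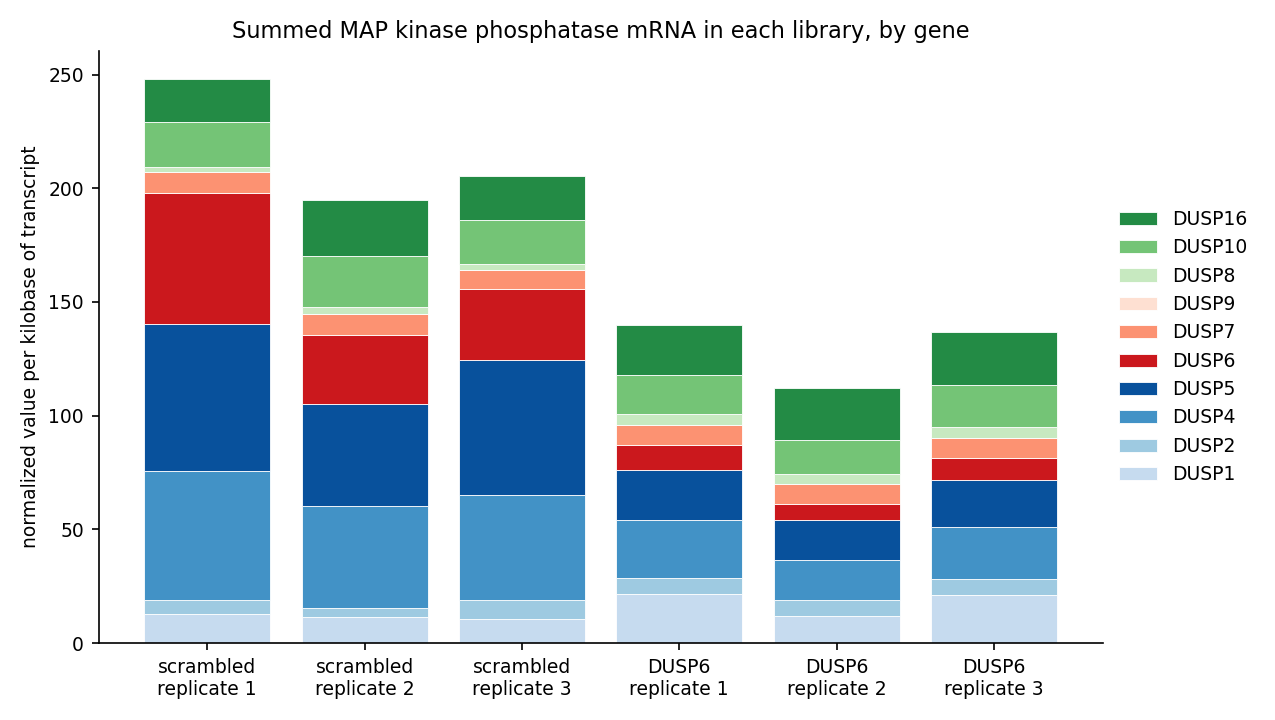
Summed normalized value per kilobase of transcript (linear y axis from 0) of the 10 MAP kinase phosphatase genes in each of the 6 libraries (x axis), with 1 color per gene. The sum lies between 195 and 248 with scrambled siRNA and between 112 and 140 with *DUSP6* siRNA, and the segments of *DUSP4*, *DUSP5* and *DUSP6* shrink while those of *DUSP7*, *DUSP10* and *DUSP16* keep a similar height.

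The subgroups lost mRNA unequally on the per-kilobase scale. The inducible nuclear enzymes went from 123 ± 17.6 to 67.4 ± 11.6 (SD, n = 3 each), 54.7% of the control, and the cytoplasmic ERK enzymes from 48.6 ± 15.8 to 18.0 ± 2.00, or 37.0%. Without *DUSP6*, the latter stood at 8.84 ± 0.626 and 8.88 ± 0.135, which was almost entirely *DUSP7*. The JNK and p38 enzymes stood at 44.2 ± 5.30 and 44.1 ± 2.14, with the means of *DUSP8* and *DUSP16* higher and that of *DUSP10* lower. As a share of the 10-gene sum, *DUSP6* went from 18.0% ± 4.47 to 6.97% ± 0.881, while *DUSP16* went from 9.88% ± 2.52 to 17.7% ± 2.50 and *DUSP1* from 5.47% ± 0.463 to 14.0% ± 2.77 (SD, n = 3 each). A share depends on the other genes of the sum, and that of *DUSP16* rose while its own level was not called.

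Other phosphatases, some of which act on MAP kinases, had calls in both directions. Of 11 atypical dual-specificity phosphatases tested, most of which lack the kinase-interaction domain, 4 were higher and 2 lower. The shares over all genes tested were 19.7% higher and 24.7% lower. The median log2 fold change of the 11 was 0.15 against -0.01 over all genes tested. The largest increases were those of *DUSP22*, a regulator of JNK signaling (0.68, limma Benjamini-Hochberg adjusted p = 0.00135), *DUSP3* (VHR), which acts on ERK and JNK (0.49, limma adjusted p = 0.00375), and *DUSP18* (0.49, limma adjusted p = 0.0120), for which other genes overlap 40.1% of the exon sequence. *STYX*, a catalytically inactive member that binds ERK, was lower (-0.44, limma adjusted p = 0.0398), but its call was lost in 8 of 15 alternative fits, among them 5 of the 6 that left out a library.

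Of 7 tested genes of serine/threonine phosphatases and their subunits that can act on MAP kinase pathways, 1 was higher and 1 lower. Of all genes tested, 19.7% were higher and 24.7% lower. The higher gene was *PPM1B* (log2 fold change 0.24, limma Benjamini-Hochberg adjusted p = 0.0439, with 30.4% of its exon sequence overlapped). The lower gene was *PPM1D*, or WIP1, a p38 phosphatase induced by p53 (-0.40, limma adjusted p = 0.0120). The call of *PPM1B* was lost in 7 of 15 alternative fits, including the replicate block (limma adjusted p = 0.101) and 5 of the 6 that left out a library, and that of *PPM1D* was lost without *DUSP6* siRNA replicate 3 (limma adjusted p = 0.0624). The median over the 7 genes was 0.13. The tyrosine phosphatases that carry a kinase-interaction motif, *PTPN5*, *PTPN7* and *PTPRR*, did not exceed a value of 0.135 in any library. None of these 18 tested phosphatase genes outside the MAP kinase phosphatases reached the log2 fold change of *DUSP8*, but that of *DUSP22* (0.68) was above that of *DUSP1* (0.58).

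**Figure D4:**
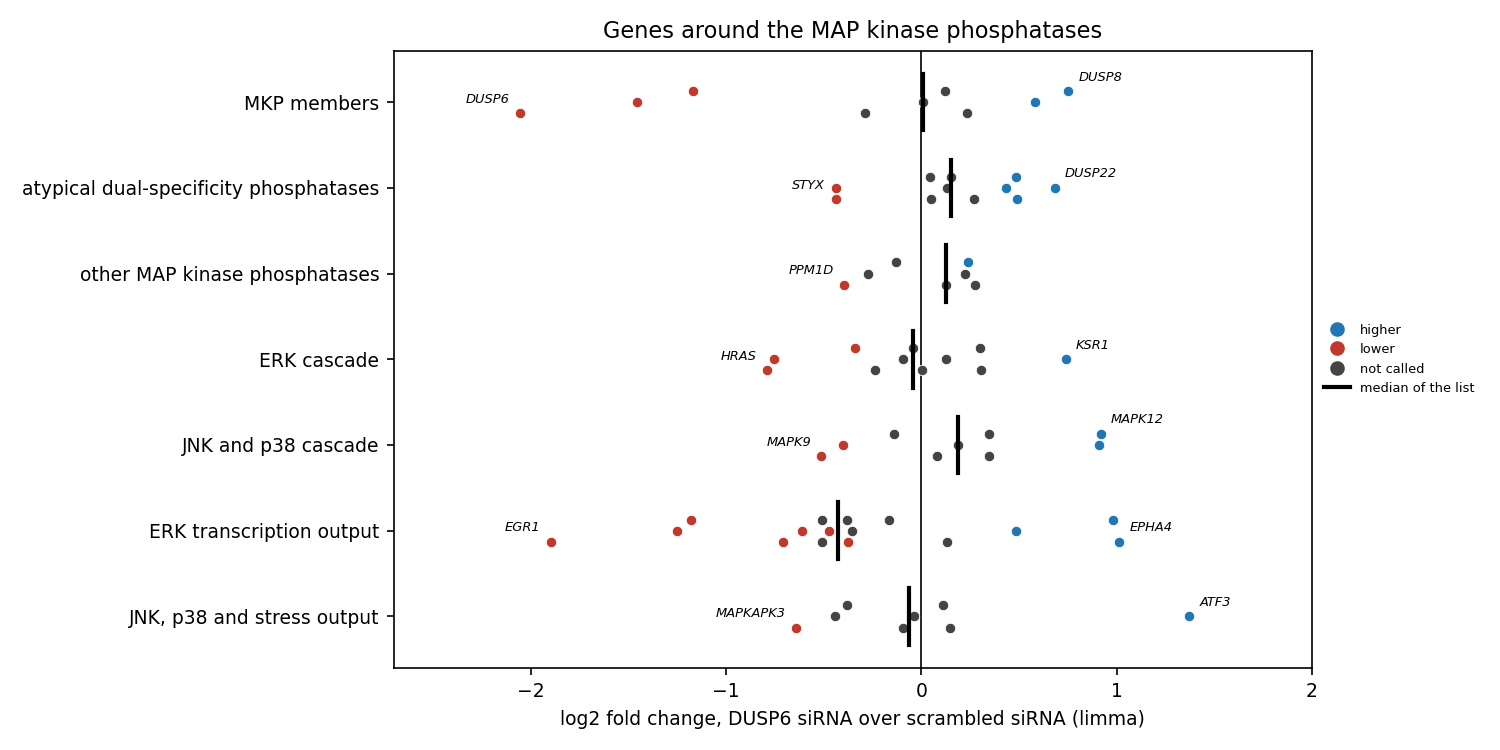
Log2 fold change (x axis, limma) of each tested gene in 7 lists (y axis), colored by call, with the median of each list as a black bar and the called genes at the ends named. The ERK output list has the lowest median, -0.43, and the MAP kinase phosphatases reach lowest, to -2.05 for *DUSP6*.

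The kinases on which these phosphatases act had calls in both directions. Of 11 genes of the ERK cascade, 3 were lower and 1 higher (median log2 fold change -0.04), and of 9 genes of the JNK and p38 cascades 2 were lower and 2 higher (median 0.19), where 44.5% of all genes tested were called. *MAPK3*, which encodes ERK1, went from 153 ± 4.98 to 90.3 ± 4.98 (SD, n = 3 each; log2 fold change -0.75, limma Benjamini-Hochberg adjusted p = 1.95e-04) and *HRAS* was lower too (log2 fold change -0.79, limma adjusted p = 2.46e-04). *KSR1*, a scaffold of the cascade, was higher (0.74, limma adjusted p = 7.16e-04). In the JNK and p38 cascades, the p38 isoforms *MAPK11* (0.91) and *MAPK12* (0.92, with 29.7% of its exon sequence overlapped) were higher and *MAPK9* (JNK2, -0.51) and *MAPK13* (p38 delta, -0.40) lower, with limma Benjamini-Hochberg adjusted p-values of 3.60e-04 to 0.00501.

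Genes whose transcription follows ERK activity moved in both directions. Of 16 tested, 7 were lower and 3 higher, where 24.7% of all genes tested were lower and 19.7% higher, and the median log2 fold change was -0.43. The balance rested in part on *DUSP6* siRNA replicate 2, the lowest library of its group for 12 of the 16. Without it, 4 were lower and 3 higher, with a median of -0.26, and with the replicate block 11 were lower and 3 higher. *SPRY4*, an ERK feedback inhibitor, was at 115, 121 and 101 with scrambled siRNA and at 51.7, 43.1 and 45.3 with *DUSP6* siRNA (log2 fold change -1.25, limma Benjamini-Hochberg adjusted p = 4.68e-05). The immediate early factor *EGR1* was at 221, 190 and 123 with scrambled siRNA and at 88.0, 18.7 and 57.1 with *DUSP6* siRNA (log2 fold change -1.90, limma adjusted p = 0.0104, and -1.27 without *DUSP6* siRNA replicate 2). *ETV4*, an ETS factor, was at 11.6, 2.45 and 3.64 and at 1.78, 1.28 and 1.75 (log2 fold change -1.18, limma adjusted p = 0.0368), with scrambled siRNA replicate 1 far above the others. Its log2 fold change was -0.63 without that library, and its call was lost without any 1 of the *DUSP6* siRNA libraries (limma adjusted p up to 0.128). *DUSP6* siRNA replicate 2 was the lowest of its group for *DUSP4*, *DUSP5* and *DUSP6* and likewise for *SPRY4*, *EGR1* and *ETV4*. The list did not move as 1 block, as *EPHA4*, a receptor tyrosine kinase, was higher in each *DUSP6* siRNA library, at 53.7 to 55.9 against 24.8 to 30.1 (log2 fold change 1.01, limma adjusted p = 1.11e-04). *SPRY2*, of the same family as *SPRY4*, was also higher in each *DUSP6* siRNA library, at 5.87 to 7.08 against 2.49 to 2.99 (log2 fold change 0.98, limma adjusted p = 2.52e-04).

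Of 8 tested genes of JNK, p38 and stress output, 1 was higher and 1 lower, where 44.5% of all genes tested were called. Their median log2 fold change was -0.06, and 0.13 without *DUSP6* siRNA replicate 2. *ATF3*, a stress-induced transcription factor, was at 31.3, 35.3 and 34.4 with scrambled siRNA and at 90.0, 68.4 and 113 with *DUSP6* siRNA, without overlap (log2 fold change 1.37, limma Benjamini-Hochberg adjusted p = 2.60e-04). *DUSP6* siRNA replicate 2 had the smallest increase of *ATF3*, as it did for *DUSP1*. *MAPKAPK3*, a kinase activated by p38, was lower (-0.64, limma adjusted p = 0.00186).

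**Figure D5:**
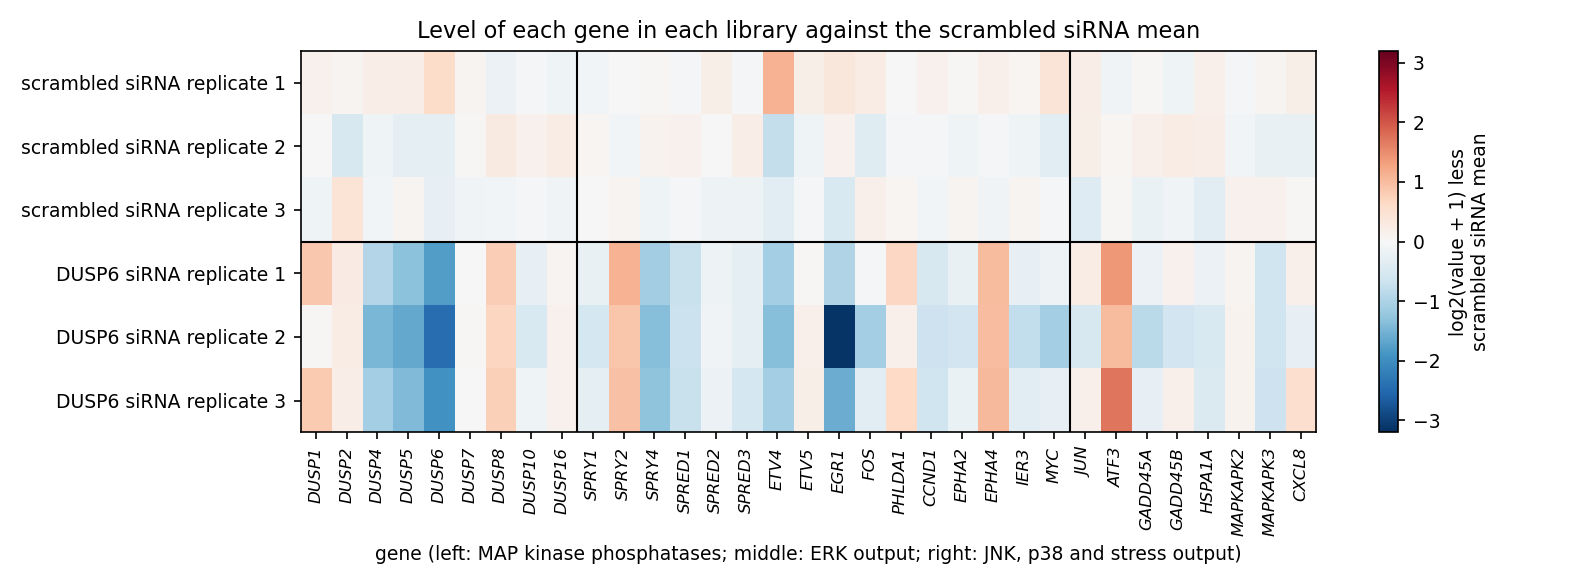
Difference of log2(value + 1) from the scrambled siRNA mean (color, on a scale symmetric around 0) for each library (y axis) and each tested gene (x axis) of the MAP kinase phosphatases, the ERK output list and the JNK, p38 and stress output list. The rows of *DUSP6* siRNA replicates 1 and 3 resemble each other, and replicate 2 is lower for *DUSP1*, *DUSP4*, *DUSP5*, *DUSP6* and *EGR1*, the last at -3.14.

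Other changes went along with those of the phosphatases in the same libraries. All 10 interferon-stimulated genes listed were higher with *DUSP6* siRNA, with a median log2 fold change of 6.16, and their summed value went from 143 to 185 with scrambled siRNA to 4300 to 4918 with *DUSP6* siRNA. Of the 11 luminal markers, 8 were lower and 1 higher, and their summed value went from a range of 4568 to 6062 to one of 3297 to 3528. Of the 8 markers of other cell types in the table, only *CD68* and *COL1A1* reached a mean of 1, with *COL1A1* higher (log2 fold change 0.90, limma Benjamini-Hochberg adjusted p = 4.21e-04), and the summed value of the 8 was 87.2 to 112 with scrambled siRNA and 168 to 198 with *DUSP6* siRNA. The part of these changes in those of *DUSP1*, *DUSP4*, *DUSP5* and *DUSP8* was not tested.

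Beyond the phosphatases, the 5 genes with the profile nearest to *DUSP6* over the 6 libraries were *TP63*, *GBP2*, *SULT2B1*, *TNS4* and *KLF17*. Their root mean square difference from *DUSP6* was 0.13 to 0.17 on the log2 scale after each profile was centered on its own mean. *TP63*, a transcription factor of squamous and basal epithelium, was nearest, at 15.2, 8.14 and 6.97 with scrambled siRNA and at 1.96, 1.37 and 1.95 with *DUSP6* siRNA. Like *DUSP6*, it was highest in scrambled siRNA replicate 1 and lowest in *DUSP6* siRNA replicate 2. The 5 genes were picked by this profile, so the likeness follows from the choice and is no separate result.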

How the data were processed

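RNA-seq of MDA-MB-453 cells was analysed in 6 libraries, 3 per siRNA group. The authors made stranded libraries, used Rsubread both to align reads (hg38) and to assign them to RefSeq genes at default settings, and deposited a table of normalized signal on a linear scale. bcl2fastq and edgeR are named in the submitters' processing notes. The deposited values were whole reads times 1 step per library (tolerance 0.01, 100% of values), and the steps matched edgeR's TMM scaling of these reads.

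Values were taken as log2(value + 1), and the 12862 of 22807 genes with a mean of at least 1 entered limma 3.58.1 under R 4.3.3 (eBayes with a trend, no block, two-sided, Benjamini-Hochberg over all genes tested, calls at 0.05). On data simulated with the same preset spread for every gene, limma and edgeR each recovered 99.0% of 196 genes changed 2-fold among 12854, with 10 and 9 unchanged genes called. Real genes differed in spread and far more of them were called, so this recovery checks the code and does not measure power here. The alternatives tried were leaving out each library, a replicate block, eBayes with no trend, a pseudocount of 0.1, a mean of at least 10 or no filter on low values, scaling by the median of ratios or by quantiles, and edgeR 4.0.16 (quasi-likelihood) and DESeq2 1.42.0 on the recovered reads. The members and lists were chosen with earlier results of these data known.

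Named were the 10 members, up to 4 called genes per other list with the largest absolute fold change, and the 5 genes nearest to *DUSP6* in profile. Not every gene this rule names is reported here. Level ranges of markers, and *SPRY2*, were added where a statement turned on them. Gene positions, MANE Select lengths and exon overlaps came from GENCODE v44 on GRCh38. Promoters came from RefSeq, and matched 8 of the 10 members. Libraries of other cells and assays of the study were not analysed here.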

Additional observations from a re-analysis of the deposited data

How the results depend on the processing

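*DUSP4*, *DUSP5*, *DUSP6* and *DUSP8* kept direction and call in all 15 alternatives. *DUSP1* lost its call in 6 of 15, so the number of other MAP kinase phosphatases called higher went from 2 to 1 without the filter on low values and lay between 1 and 2 when single libraries were left out. The number called lower was 2 throughout. Over all genes, 1639 rather than 2540 were called higher at a mean value of at least 10, where fewer genes were tested, and 1574 to 3183 with single libraries left out, the lowest without *DUSP6* siRNA replicate 2. The sign of uncalled genes turned for *DUSP2* (-0.016 without scrambled siRNA replicate 2, within a leave-one-out range up to 0.45) and for *DUSP7* (-0.046 without scrambled siRNA replicate 3 and -0.0016 without *DUSP6* siRNA replicate 2, within a range up to 0.051). Other scalings moved the median of all genes to at most 0.0245.

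Over all genes tested, same-numbered libraries of the groups did not deviate together (correlations 0.005, 0.0868 and -0.0764), so the numbers were not taken to pair them. *DUSP4*, *DUSP5* and *DUSP6* did rank the replicates in the order 1, 3 and 2 in both groups. With a replicate block, 2495 genes were called higher and 3096 lower, *DUSP6* kept its log2 fold change of -2.05 (limma adjusted p = 8.38e-07), and no call among the MAP kinase phosphatases changed.

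With 3 libraries per group the spread between libraries, not the read depth, set the precision for all members but *DUSP9*, whose 0 to 4 reads per library allow no comparison. The siRNA used in each library is not known here, so effects of single siRNAs could not be separated from those of the target, and no value for protein or kinase activity was at hand.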
